A study of Drosophila melanogaster with 4 samples.

Results

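The genes described here are the fly Nrf2 homologue *cnc*, its inhibitor *Keap1*, its dimer partner *maf-S* and 7 antioxidant enzyme genes: *Gclc*, *Gclm*, *Trxr-1*, *Jafrac1*, *Cat*, *Sod2* and *Sod3*. They were chosen by gene symbol, with earlier results of these data known, and all 10 were found among the 16489 symbols of the count files. RNA was sequenced from adult heads of Drosophila melanogaster in 2 groups. Control heads had the genotype GMR-Gal4 (n = 2 libraries), and the others GMR>yki S168A (n = 2 libraries), in which the driver directs a form of the growth regulator Yorkie that lacks a serine through which the Hippo pathway restrains it. Both groups thus carry GMR-Gal4, which is active mainly in the developing and adult eye, while RNA came from whole heads pooled at 30 per library. The series calls the yki S168A heads tumor tissue, and the age and sex of the flies are not given in the labels. With these 2 genotypes, Yorkie activity, the insertion site and the background of the stocks cannot be told apart.

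In resting cells Keap1 holds the long CncC form of cnc and hands it to a Cullin-3 ubiquitin ligase for degradation. Oxidative or electrophilic stress loosens this hold, and CncC then binds DNA together with the small Maf protein and raises detoxification and antioxidant genes. Much of this control is at the level of the cnc protein, which RNA counts do not measure. Flies have no glutathione reductase, so thioredoxin reductase keeps both the thioredoxin and the glutathione pool reduced.

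In yki S168A heads *Trxr-1*, *Sod3* and *Jafrac1* rose by 1.85-, 1.64- and 1.62-fold, and *Gclm*, the modifier subunit of the enzyme that limits glutathione synthesis, was 1.68-fold lower. The other 6 genes, *cnc*, *Keap1*, *maf-S*, *Gclc*, *Cat* and *Sod2*, did not pass the test. Calls are Benjamini-Hochberg adjusted p-values below 0.05 over all 10896 genes tested, by edgeR's quasi-likelihood test. All 10 genes passed the filter on low counts, and 9 of them had at least 10 CPM (counts scaled to a common library size) in both group means. Of the 10, 3 were called higher, where 15.1% of all tested genes were called higher, and 1 was called lower, where 12.5% were. The 4 calls in either direction, 40.0% of the members, stand beside 27.6% of all tested genes. Since the members were chosen with earlier results known, this share is described and was not tested. The libraries of the groups did not overlap for 9 of the 10 genes, against 63.3% of all tested genes. Over all tested genes 1647 were called higher and 1359 lower, and under upper-quartile scaling, which shifts the median log2 fold change of all genes to −0.145, 1276 and 1924. No member changed sign under any of the scalings or other alternatives run. The median log2 fold change of the 10 genes was 0.20, against 0.01 over all tested genes.

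**Figure D1:**
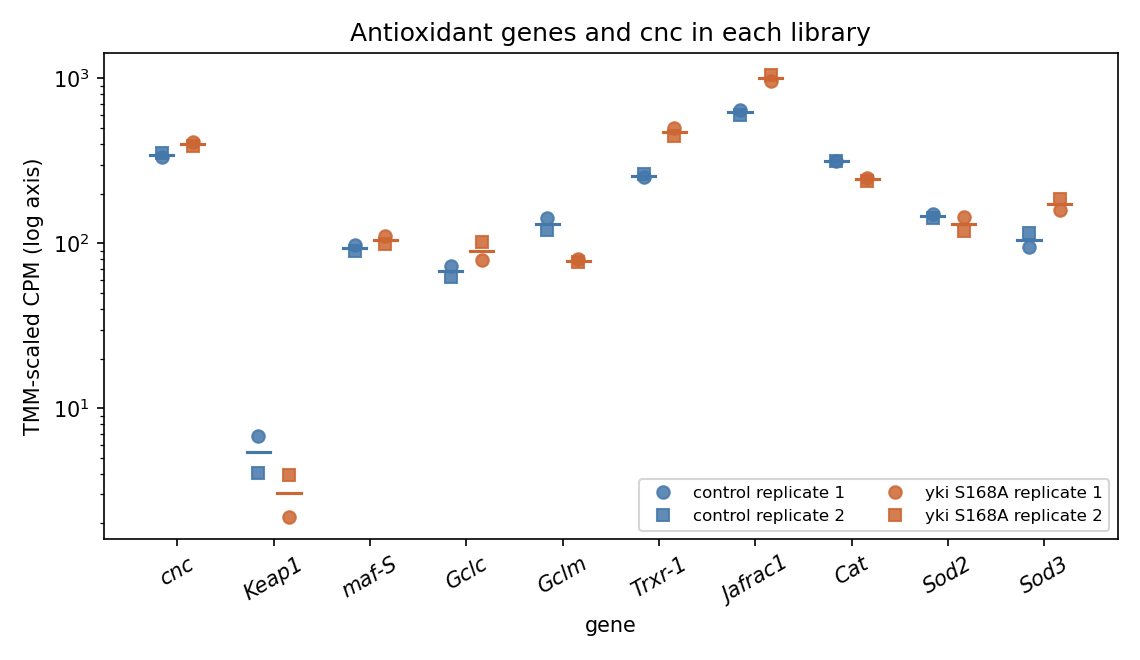
TMM-scaled CPM (log axis) of the 10 genes in each of the 4 libraries, with circles for replicate 1, squares for replicate 2 and bars for group means. *Trxr-1*, *Jafrac1* and *Sod3* stand higher in both yki S168A libraries, *Gclm* lower, and *Keap1* lies far below the rest at 2.19 to 6.74 CPM.

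The libraries held between 15738860 and 18108814 counts. By these totals alone, without TMM scaling, a count of 3 equals 0.166 to 0.191 CPM, depending on the library. The *yki* gene, whose S168A form the transgene carries, stood at 12.4 and 18.4 CPM in control and at 32.2 and 27.2 CPM in yki S168A libraries. Its log2 fold change was 0.95 ± 0.23 (SE, edgeR adjusted p = 0.0112), and 0.69 without control replicate 1. Counts per gene symbol do not separate the endogenous gene from the transgene. The labels do not state whether replicates are separate crosses. The p-values thus reflect the spread among these 4 libraries alone, which may be technical. For each gene the fit also draws on the spread of all other tested genes. All 7 neuron markers and all 7 glia markers listed were detected, as heads require, and the 6 midgut markers summed to 2.33 to 4.34 CPM in control and 3.58 to 4.55 CPM in yki S168A libraries. Of these *betaTry* and *Jon25Biii* were at 0 in all libraries, *Mal-A1* was counted 30 to 75 times in each, and *alphaTry*, *Jon99Ci* and *Npc1b* had counts in 1 control library each. Photoreceptor markers were lower in yki S168A heads in 8 of 8 cases, with a summed level of 10540 to 10960 CPM in control and 3573 to 3836 CPM in yki S168A libraries. Fat body markers were lower in 8 of 9 cases (summed level 61410 to 71730 CPM in control and 15380 to 24780 CPM in yki S168A libraries). Most of that sum came from the yolk protein genes *Yp1*, *Yp2* and *Yp3*. *Yp2* alone was at 26090 and 32130 CPM in control and 10530 and 6358 CPM in yki S168A libraries. The sex of the flies is not given, and its part in this fall was not tested. Neuron markers were lower in 4 of 7 (2684 to 2893 and 1643 to 2131 CPM). Of 7 glia markers 1 was higher, of 8 hemocyte markers 1 was higher and 2 lower, and of 6 muscle markers 0 were called. Beside these counts, 15.1% of all tested genes were called higher and 12.5% lower. In whole heads fewer cells of a type and less RNA per cell cannot be told apart, and the part of these shifts in the results below was not tested.

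The regulator *cnc* (FBgn0262975, chromosome 3R, 23185580 to 23226711, minus strand; all positions are on dm6) measured 332 and 352 CPM in control heads against 412 and 390 CPM in yki S168A heads. Both yki S168A values lay above both control values, but the log2 fold change of 0.23 (95% interval −0.08 to 0.54) did not pass (edgeR adjusted p = 0.26). Under the 12 alternative settings it ran from 0.07 to 0.27 and passed in 0. The annotation lists 16 transcripts of *cnc* that encode proteins of 7 lengths, from 533 to 1430 residues. The long ones belong to the stress-responsive CncC form, whereas a shorter form is known for patterning the embryonic head. The gene counts sum all of them, so the level of CncC transcripts alone was not measured.

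*Keap1* (FBgn0038475, chromosome 3R, 17073942 to 17079945, minus strand), the adaptor that presents CncC for degradation, was counted 118 and 66 times in control heads, against 36 and 69 times in yki S168A heads. These are 6.74 and 4.05 CPM in control and 2.19 and 3.92 CPM in yki S168A heads, and control replicate 2 and yki S168A replicate 2 nearly touch. The log2 fold change of −0.82 ± 0.45 (SE) did not pass (edgeR adjusted p = 0.215), with a 95% interval of −1.82 to 0.18. It was −0.40 without control replicate 1 and −1.31 without yki S168A replicate 2. That interval holds both no change and a fall of more than 1 on the log2 scale.

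The small Maf gene *maf-S* (FBgn0034534, chromosome 2R, 20640976 to 20641668, plus strand), which codes for the partner with which CncC binds DNA, was at 97.3 and 89.7 CPM in control and at 111 and 99.4 CPM in yki S168A libraries. The groups lay close together without overlapping, and the log2 fold change of 0.17 (95% interval −0.14 to 0.49, edgeR adjusted p = 0.42) did not pass. Per kilobase of exon, *cnc* stood to *maf-S* at 0.24 and 0.277 in control heads, against 0.26 and 0.276 in yki S168A heads, so the ratios of the groups overlapped. *Keap1* was far scarcer than *cnc*. The ratio of *cnc* to *Keap1*, per kilobase of exon, was 18.5 and 32.7 in control heads, against 70.8 and 37.4 in yki S168A heads. These did not overlap, and the geometric means differed 2.09-fold. With 2 libraries against 2, an exact two-sided permutation test cannot give a p below 0.333, so no ratio was tested.

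By a distance over the 4 libraries, taken on log2 CPM centred on each gene's mean and among 6682 other genes with a mean of at least 10 CPM, the genes nearest to *cnc* in pattern were *CG9154* (distance 0.0377), *CG4747* (0.039) and *AMPKalpha* (0.0402). *AMPKalpha*, the catalytic subunit of the energy-sensing kinase AMPK, was at 60.7 and 66.4 CPM in control and at 77.6 and 74.0 CPM in yki S168A libraries. With 4 libraries many patterns of small size lie close to each other, and none of the 3 genes was called (edgeR adjusted p = 0.531, 0.494 and 0.235).

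The subunit genes of glutamate-cysteine ligase, which catalyzes the first and limiting step of glutathione synthesis, differed in their response. The modifier subunit gene *Gclm* (FBgn0046114, chromosome 3R, 22685006 to 22686510, minus strand), whose 285-residue product improves the catalytic efficiency of the enzyme, was at 143 and 120 CPM in control and at 79.8 and 76.9 CPM in yki S168A libraries. Both yki S168A values lay well below both control values. The log2 fold change was −0.74 ± 0.15 (SE), and *Gclm* was called lower (edgeR adjusted p = 0.00348). Without control replicate 1, its higher control library, the adjusted p was 0.0733. Fat body and photoreceptor markers fell in the same libraries, and their part in the *Gclm* result was not tested.

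The catalytic subunit gene *Gclc* (FBgn0040319, chromosome X, 8102181 to 8116147, minus strand), which codes for 717 residues, was at 72.4 and 62.6 CPM in control and at 79.5 and 101 CPM in yki S168A libraries. The groups did not overlap, but yki S168A replicate 1 lay close to control replicate 1. With a log2 difference of 0.42 ± 0.17 (SE), *Gclc* did not pass (edgeR adjusted p = 0.083). It passed in 2 of 12 alternative settings. Per kilobase of exon, the ratio of *Gclc* to *Gclm* was 0.173 and 0.178 in control heads, against 0.34 and 0.451 in yki S168A heads. The control ratios were almost equal and both yki S168A ratios stood above them, with geometric means that differed 2.23-fold. The summed level of both subunits, not scaled by length, was 215 and 183 CPM in control and 159 and 178 CPM in yki S168A libraries. These did not overlap, but control replicate 2 and yki S168A replicate 2 lay close together, and the sum was not tested.

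**Figure D2:**
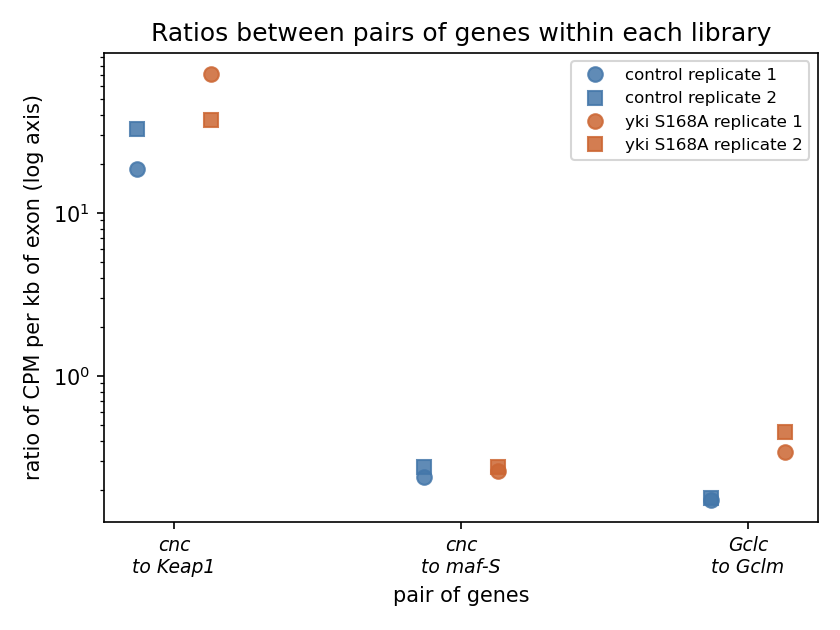
Ratios of exon-length-scaled CPM between members (log axis) in the 4 libraries, for *cnc* to *Keap1*, *cnc* to *maf-S* and *Gclc* to *Gclm*. The ratio of *Gclc* to *Gclm* is 0.173 and 0.178 in control against 0.34 and 0.451 in yki S168A libraries, while that of *cnc* to *maf-S* overlaps between groups.

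Both thioredoxin-pathway members were higher. *Trxr-1* (FBgn0020653, now Trxr1, chromosome X, 8242528 to 8248033, plus strand) codes for the thioredoxin reductase that passes electrons from NADPH to thioredoxin. It was at 251 and 263 CPM in control and at 501 and 449 CPM in yki S168A libraries. The gap between the groups was far wider than the spread within either. The log2 fold change was 0.89 ± 0.14 (SE, edgeR adjusted p = 0.000932), and *Trxr-1* was called in all 12 alternative settings, at 0.73 to 0.96. Of its exon bases 13.8% lie opposite *sni*, a carbonyl reductase gene, and whether counting used strand is not given in the sources used here. *sni* was much lower, at 15.5 and 8.96 CPM in control and 18.6 and 15.5 CPM in yki S168A libraries, and was not called (edgeR adjusted p = 0.253).

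*Jafrac1* (FBgn0040309, now Prx2, chromosome X, 13329824 to 13331994, plus strand), a 194-residue cytosolic peroxiredoxin that removes peroxides with electrons from thioredoxin, was the most abundant member. It was at 645 and 602 CPM in control and at 969 and 1048 CPM in yki S168A libraries, with no overlap. The log2 fold change was 0.69 ± 0.15 (SE, edgeR adjusted p = 0.00638). Leaving out control replicate 1 or control replicate 2 gave adjusted p-values of 0.11 and 0.165.

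Of the superoxide dismutase and catalase genes among the members, *Sod3* was called and *Sod2* and *Cat* were not. *Sod3* (FBgn0033631, chromosome 2R, 11380347 to 11384114, minus strand), the extracellular superoxide dismutase gene, was at 95.4 and 115.5 CPM in control and at 159 and 187 CPM in yki S168A libraries. The lower yki S168A value lay above the higher control value. The log2 difference was 0.71 ± 0.16 (SE), with an edgeR adjusted p = 0.00584. Without control replicate 1, its lower control library, the adjusted p was 0.118.

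*Sod2* (FBgn0010213, chromosome 2R, 16772785 to 16773915, minus strand), the mitochondrial manganese superoxide dismutase gene, was at 151 and 143 CPM in control and at 144 and 119 CPM in yki S168A libraries. It was the member whose groups overlapped, and the log2 fold change of −0.16 (95% interval −0.48 to 0.17, edgeR adjusted p = 0.478) did not pass.

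*Cat* (FBgn0000261, chromosome 3L, 18822604 to 18828188, plus strand), the catalase that breaks down hydrogen peroxide in peroxisomes, was at 317 and 318 CPM in control and at 250 and 239 CPM in yki S168A libraries. Both yki S168A values lay below the nearly equal control values. The log2 fold change of −0.38 ± 0.14 (SE) stood just outside the threshold (edgeR adjusted p = 0.0616), and 6 of 12 alternative settings called it lower, among them DESeq2 (adjusted p = 0.0328). Fat body markers fell in the same libraries, and their part in the *Cat* values was not tested.

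**Figure D3:**
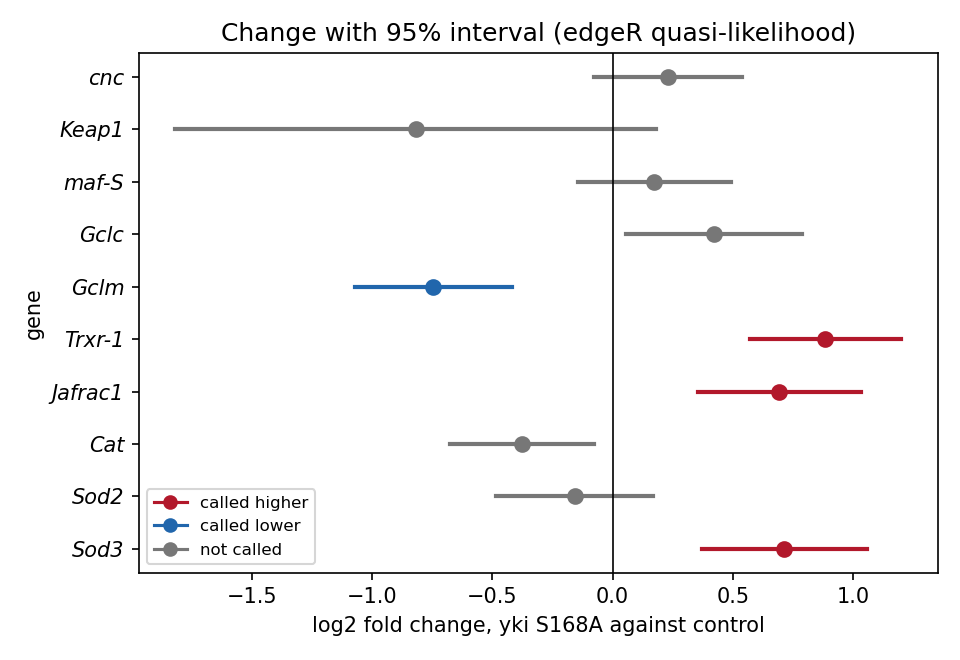
Log2 fold change (yki S168A against control) of the 10 genes with 95% intervals from the edgeR fit, which are not adjusted for the number of genes, so that those of *Gclc* and *Cat* exclude 0 though neither was called. The intervals of *Trxr-1*, *Sod3* and *Jafrac1* lie above 0 and that of *Gclm* below it, and the interval of *Keap1*, from −1.82 to 0.18, is the widest.

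The summed level of *Cat*, *Sod2*, *Sod3*, *Trxr-1* and *Jafrac1* was 1459 and 1441 CPM in control and 2023 and 2043 CPM in yki S168A libraries. *Jafrac1* and *Trxr-1* made up most of that difference. Over all 10 genes the sums were 2110 and 2070 CPM against 2708 and 2714 CPM, close within each group.

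Per kilobase of exon, which allows levels to be compared between genes, the order in control heads was led by *Jafrac1* at 426 CPM per kb. *Cat* followed at 159, then *Sod2* and *maf-S*, both at 145, whose control libraries overlapped. *Gclm* at 87.2 and *Trxr-1* at 81.7 also overlapped, and they exchanged places when the longest transcript was used as length. *Sod3* (52.2), *cnc* (37.3), *Gclc* (15.3) and *Keap1* (1.56) came after them. In yki S168A heads *Jafrac1* again came first, at 689 CPM per kb, followed by *maf-S* (163) and *Trxr-1* (151), whose libraries overlapped and which stood in the opposite order by longest transcript (163 and 209), and by *Sod2* (130) and *Cat* (123), whose libraries overlapped as well. *Gclm*, at 52.1 CPM per kb, stood below *Sod3* (85.7), and changed places with *cnc* (43.7) by longest transcript. *Gclc* (20.6) and *Keap1* (0.885) came last.

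**Figure D4:**
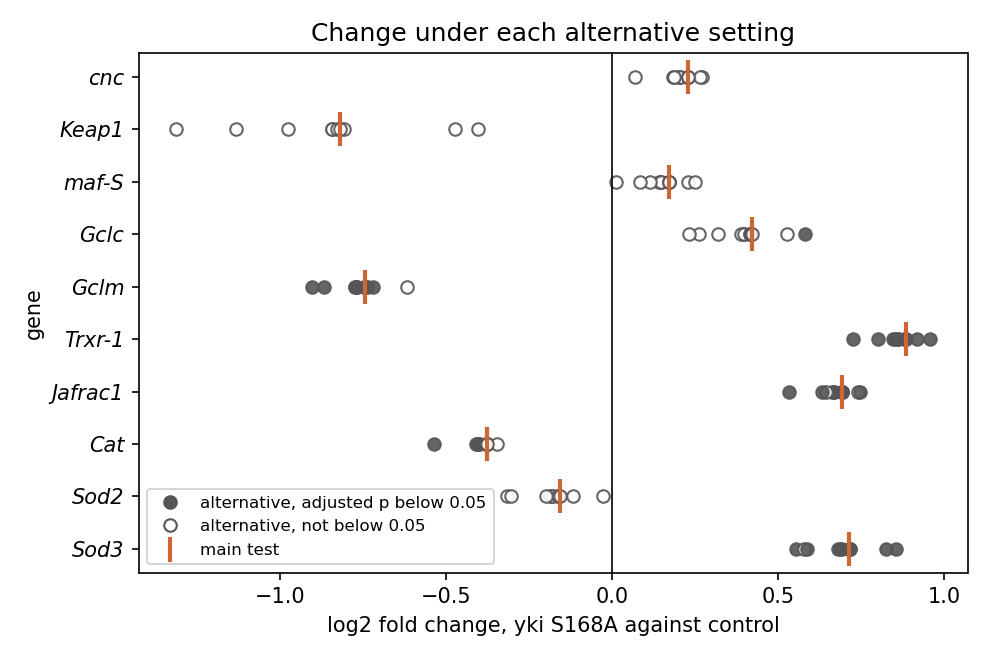
Log2 fold change of each of the 10 genes in the main fit and under the alternative settings, as vertical bars for the main fit and circles for the alternatives, filled where a gene was called. No gene changes sign, *Trxr-1* is called throughout and *cnc*, *Keap1*, *maf-S* and *Sod2* never are.

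Further genes of the same pathways were read from the same fit as 8 lists with 73 distinct genes, of which 66 were tested. Of these 17 were called higher and 9 lower, 39.4% in all, against 27.6% of all tested genes, and their median log2 fold change was 0.24. The lists were chosen with earlier results of these data known, so these shares are described and were not tested. Over all tested genes 15.1% were called higher and 12.5% lower, and the counts of each list below stand beside these shares. In each list, the genes given with values are the called members with the smallest p-values, unless stated otherwise. Of the 26 called genes, 13 kept their call when any 1 library was left out, and 13 lost it for at least 1.

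Of 7 tested genes of the machinery that degrades or modulates cnc and Keap1, 1 rose and 1 fell. Both counts lie near the shares of all tested genes, 15.1% higher and 12.5% lower. *sgg*, the fly GSK3 kinase gene, was at 286 and 287 CPM in control and 164 and 181 CPM in yki S168A libraries (log2 fold change −0.73, edgeR adjusted p = 0.00248). *Roc1a*, the RING subunit gene of Cullin ligases, had a log2 fold change of 0.49 (edgeR adjusted p = 0.0338). Its call was lost without control replicate 1 (0.216), control replicate 2 (0.193) or yki S168A replicate 1 (0.0907), and also under upper-quartile scaling (0.129), with no filter (0.0529) and by DESeq2 (0.0589). Of its exon bases 9.36% lie opposite another gene.

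Of 14 tested genes of the thioredoxin and peroxiredoxin list, 3 rose and 5 fell, with a median log2 fold change of −0.283. The list also holds the methionine sulfoxide reductase genes *SelR* and *Eip71CD* and the sulfiredoxin gene *CG6762*. These are neither thioredoxins nor peroxiredoxins, and *SelR* is among the 5 lower. *Trx-2*, the main thioredoxin and a substrate of the *Trxr-1* product, was at 123 and 114 CPM in control and 207 and 215 CPM in yki S168A libraries (log2 fold change 0.83, edgeR adjusted p = 0.00107). *Jafrac2*, a peroxiredoxin of the secretory pathway, rose with it, by 0.91 on the log2 scale (edgeR adjusted p = 0.00242). *Txl*, a thioredoxin-like gene named after its values were seen, had a log2 fold change of 0.62 (edgeR adjusted p = 0.0143), with adjusted p-values of 0.108 without control replicate 1, 0.129 without control replicate 2 and 0.0516 under upper-quartile scaling.

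Among the lower genes was the female germline thioredoxin *dhd*, counted 32 and 145 times in control heads, against 0 and 0 times in yki S168A heads (edgeR adjusted p = 0.00627). Against a floor of 3 counts per library it was at least 30.5-fold lower, and at least 10.4-fold without control replicate 2 or 50.5-fold without control replicate 1. Its neighbour on chromosome X, the testis thioredoxin *TrxT*, was counted 84 and 64 times in control heads, against 14 and 16 times in yki S168A heads (edgeR adjusted p = 0.00883, and 0.0835 without control replicate 1). Heads should hold no germline, and the 6 germline and accessory gland markers summed to 3.25 to 3.65 CPM in control and 2.43 to 2.5 CPM in yki S168A libraries. Of them *Mst84Db* was at 0 throughout. *vas* was counted 12 and 3 times and *bam* 12 and 7 times in control heads, and both were at 0 in yki S168A heads. *osk* was counted 0 and 10 times in control heads, against 1 and 0 times in yki S168A heads. *nos*, at 40 and 33 against 19 and 44 counts, overlapped between the groups, and *SP* was at 0 apart from 20 counts in yki S168A replicate 1. Their part in the *dhd* and *TrxT* results was not tested.

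The remaining lower genes were *Prx2540-1* (edgeR adjusted p = 0.0367), *CG12896* (0.02) and *SelR* (0.0222), at log2 fold changes of −0.55, −0.65 and −0.51. They and *TrxT* were named after their values were seen. *Prx2540-1* and *CG12896* belong to a group of closely similar peroxiredoxin genes between which reads could be split, so their values are uncertain. *Prx2540-2* of the same group, also named after its values were seen, had a log2 fold change of −0.71 and did not pass (edgeR adjusted p = 0.0535). *Prx2540-1* was not called without control replicate 1 (0.152), control replicate 2 (0.175) or yki S168A replicate 1 (0.126), nor with no filter (0.0538). *CG12896* was not called without control replicate 1 (0.221), and *SelR* without control replicate 1 (0.118) or control replicate 2 (0.197). The 5 lower calls dropped to 1 without control replicate 1 and to 3 without control replicate 2.

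Of 7 tested genes of glutathione supply and use, 3 rose and 0 fell. The glutathione synthetase gene *Gss1* was also listed, but no symbol could be tied to it with certainty, so it is not counted here. *PHGPx*, the glutathione peroxidase homologue, was at 139 and 135 CPM in control and 203 and 204 CPM in yki S168A libraries (log2 fold change 0.57, edgeR adjusted p = 0.0095). *Ggt-1*, which codes for a gamma-glutamyl transpeptidase that cleaves glutathione, and *gb*, a cystine and glutamate exchanger gene, had log2 fold changes of 0.77 and 0.83 (edgeR adjusted p = 0.0132 and 0.0381). Without control replicate 1 none of the 3 was called, and without control replicate 2 *Ggt-1* alone was. The call of *gb* was also lost without yki S168A replicate 2 (0.194), under upper-quartile scaling (0.0828) and by DESeq2 (0.0544). Of the exon bases of *gb* 32.8% lie opposite an antisense RNA.

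Of 12 tested glutathione S-transferase genes outside the D and E classes, 4 rose and 0 fell. *GstT4* was at 33.3 and 28.9 CPM in control and 156 and 134 CPM in yki S168A libraries (log2 fold change 2.22, edgeR adjusted p = 2.41e-06). The omega-class genes *GstO2* and *se*, the latter an enzyme of eye pigment synthesis, had log2 fold changes of 0.89 and 1.11 (edgeR adjusted p = 0.001 and 0.00266). Their exons overlap on opposite strands over 3.5% and 7.39% of their bases. *GstO3*, named after its values were seen, had a log2 fold change of 0.60 (edgeR adjusted p = 0.0238). Its adjusted p was 0.244, 0.0718 and 0.0614 when control replicate 1, control replicate 2 or yki S168A replicate 1 was dropped, and 0.0775 under upper-quartile scaling.

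Of 8 tested genes of NADPH supply, on which thioredoxin reductase draws, 1 rose and 1 fell. Both counts lie near the shares of all tested genes, 15.1% higher and 12.5% lower. *Zw*, the glucose-6-phosphate dehydrogenase gene that opens the pentose phosphate pathway, was at 34.4 and 30.3 CPM in control and 129 and 144 CPM in yki S168A libraries. Its log2 fold change was 2.07 ± 0.16 (SE, edgeR adjusted p = 3.2e-06), and 16.4% of its exon bases lie opposite other genes. *Men*, the malic enzyme gene, was lower, at −0.52 on the log2 scale (edgeR adjusted p = 0.029). Its adjusted p was 0.174, 0.137 and 0.075 when control replicate 1, control replicate 2 or yki S168A replicate 2 was dropped.

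Genes that earlier work reported to respond to CncC moved both ways, with 3 higher and 2 lower of 11 tested and a median log2 fold change of −0.031. All 3 higher ones were glutathione S-transferases. *GstD1* was at 325 and 291 CPM in control and 1148 and 904 CPM in yki S168A libraries (log2 fold change 1.74, edgeR adjusted p = 2.38e-05). *GstD2* was at 2.97 and 5.09 CPM in control and 37.2 and 41.1 CPM in yki S168A libraries (3.29, adjusted p = 5.94e-06 by edgeR). *GstE1* was at 9.71 and 16.4 CPM in control and 56.9 and 64.5 CPM in yki S168A libraries (2.22, adjusted p = 3.79e-05 by edgeR).

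The epoxide hydrolase gene *Jheh1* was lower (log2 fold change −0.72, edgeR adjusted p = 0.0195), but 100% of its exon bases lie opposite an antisense RNA. Its adjusted p was 0.146, 0.0754 and 0.0608 without control replicate 1, control replicate 2 and yki S168A replicate 2. The cytochrome P450 genes *Cyp12d1-p* and *Cyp12d1-d*, nearly identical neighbouring copies, were named after their values were seen. The groups of *Cyp12d1-p* overlapped, and its log2 fold change of −0.84 did not pass (edgeR adjusted p = 0.0746). *Cyp12d1-d* had a log2 fold change of −1.15 (edgeR adjusted p = 0.0332). That adjusted p was 0.207 without control replicate 1 and 0.127 without yki S168A replicate 2, and the log2 fold change was −1.87 without yki S168A replicate 1 and −0.67 without yki S168A replicate 2.

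Both NADPH oxidase genes, whose products make superoxide and hydrogen peroxide, were higher. *Nox* was at 5.6 and 5.59 CPM in control and 27.3 and 29.9 CPM in yki S168A libraries (log2 fold change 2.35, edgeR adjusted p = 2.97e-05). *Duox* was at 6.11 and 2.46 CPM in control and 28.8 and 31.3 CPM in yki S168A libraries (log2 fold change 2.79, edgeR adjusted p = 8.7e-05). Without control replicate 1 its log2 fold change was 3.61, and without control replicate 2 it was 2.295. The Duox maturation factor gene *mol* had a log2 fold change of 0.64 and did not pass (edgeR adjusted p = 0.0717).

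Of the 5 tested superoxide dismutase and catalase relatives outside the members, edgeR called 0, with 2 at an unadjusted p below 0.05, and DESeq2 and limma-voom each called 0. *Sod*, the cytosolic copper-zinc enzyme gene, was at 279 and 260 CPM in control and 352 and 250 CPM in yki S168A libraries, which overlapped. Without yki S168A replicate 2, 2 genes of this list were called higher.

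**Figure D5:**
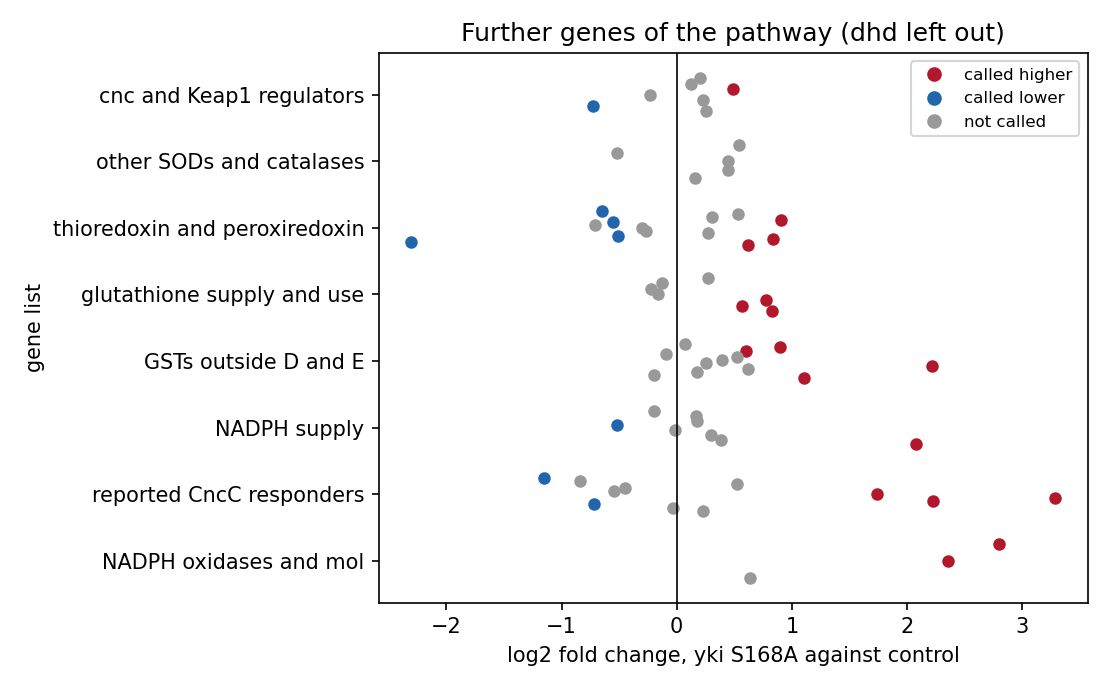
Log2 fold change of the tested genes of the 8 pathway lists, 1 point per gene, red where called higher, blue where called lower and grey otherwise, with *dhd* left out because its yki S168A counts are 0. *GstD2*, *Duox* and *Nox* stand furthest above 0, at 3.29, 2.79 and 2.35, and *TrxT* furthest below it, at −2.30.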

How the data were processed

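mRNA libraries (Lexogen SENSE kit, per the labels' protocols) of 30 heads each were sequenced for 2 control and 2 yki S168A samples. The authors deposited whole-number read counts per gene symbol. The build is dm6 per the submitters' processing notes, while the sources used here name no aligner, counter or strand setting. Each file has 16509 lines, of which 37 share 17 symbols and were summed to give 16489 symbols. Gene positions and exon lengths come from Ensembl release 115 (dm6 coordinates), where 16334 symbols were matched.

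Counts were scaled by TMM, filtered with filterByExpr and tested with edgeR 4.0.16 (quasi-likelihood, R 4.3.3) over 10896 genes, with Benjamini-Hochberg adjustment and a threshold of 0.05. The edgeR steps were run on simulated counts with known changes and the same dispersion for all genes. That run does not cover the unequal replicate spread of the groups in these data. CPM are TMM-scaled, apart from the CPM given for a count of 3. Counting intervals or floors (3 counts) cover counting error only. Intervals are 95%, from the fit. Members and lists were chosen with earlier results of these data known. Named from each list were the 3 called genes with the smallest p, and the one with the smallest p in the other direction. Also named were the 3 genes nearest to cnc in pattern (mean of at least 10 CPM).

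Alternatives were RLE and upper-quartile scaling, no filter, a mean of at least 10 CPM, DESeq2 1.42.0, limma-voom 3.58.1, leaving out each library, blocking on replicate number, and a legacy quasi-likelihood fit, chosen after seeing the data.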

Additional observations from a re-analysis of the deposited data

How the results depend on the processing

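Over 119 values of the members under alternatives, 107 kept direction and side of the threshold, 4 lost the call, 8 gained it and 0 reversed. The count of members called lower was 2, in place of 1, under RLE scaling, upper-quartile scaling, the filter of at least 10 CPM, DESeq2 and the replicate block, since Cat joined Gclm. With 1 library left out, members called ran from 1 to 6, higher from 1 to 4 and lower from 0 to 2. Over all genes, calls then ran from 1634 to 3123, higher from 983 to 1688 and lower from 648 to 1435. A lone remaining library is assumed to vary like the other group. Of 288 counts over the pathway lists, 250 stayed within 1.5 times the main count and 38 moved. The causes were not tested. The labels do not say that same-numbered libraries are pairs, and the main fit did not pair them. Their deviations from the group means correlated at 0.0184 over 10896 genes, which cannot settle whether they were handled together. The replicate block gave 3626 calls in place of 3006, and 6 members called (4 higher, 2 lower). Keap1 was not tested under the 10 CPM filter. Keap1 has the fewest counts of the members, 36 to 118 per library.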
